A study of Physcomitrium patens with 24 samples.

Results

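The results below concern 1599 loci of the moss Physcomitrium patens at which protein protection of RNA was called after 60 min of abscisic acid (ABA) and at no earlier time. They were chosen from 3 deposited lists of protected sites, 1 per time (0, 30 and 60 min). Same-strand sites that overlapped by at least 1 nt were joined into loci, of which the chromosomes held 70742. A locus was kept when both replicates of the 60-min dsRNase calls named it and no site of the 0-min or 30-min list touched it. The kept loci, called 60-min-only loci here, are 2.26% of all loci and 7.19% (95% Wilson interval 6.86 to 7.54%) of the 22244 loci with a 60-min call in both dsRNase replicates. Those calls chose the loci, so their presence at 60 min and absence before it are a description, not a result.

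The study applied protein interaction profile sequencing (PIP-seq) to moss protonema, the tissue of branching filaments that grows from a spore, in liquid culture. The groups were protonema with 0, 30 or 60 min of ABA. Protonema of 10 days was grown for 3 days in liquid before ABA was added. The treatment protocol gives the dose as 10 mM, whereas the design text has 10 µM, and control cultures received an equal volume of methanol. At each time formaldehyde-crosslinked homogenate was divided into protein-bound and structure-only parts. Each part was digested with RNaseONE, which cuts unpaired RNA (ssRNase), or RNase V1, which cuts paired RNA (dsRNase). The 24 libraries form 12 groups of 2 replicates, and the labels do not say that replicates came from separate cultures. All 3 groups are of 1 tissue, and the labels list no group with solvent alone at 30 or 60 min, so ABA and elapsed time cannot be told apart.

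PIP-seq compares RNA that was digested while crosslinked proteins still covered it with RNA stripped of protein before digestion. Stretches that survive better with protein present are called protein-protected sites, the likely footprints of RNA-binding proteins such as those that govern splicing, stability and translation. ABA is a hormone through which plants respond to water deficit, and in mosses it brings on tolerance of drying and freezing. A stretch of RNA that is first protected late after ABA may lie on a transcript that was already bound elsewhere, or on one with no bound site before. Neither read counts nor RNA levels come with the lists, so in these bulk samples more RNA and more bound protein cannot be told apart.

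Each site carries the names of the calls merged into it, from 4 call sets per list (dsRNase and ssRNase, replicates 1 and 2). On the chromosomes the 6 dsRNase sets named 25801 to 37047 loci each, and the 6 ssRNase sets 5693 to 13217. The share of called loci on the plus strand ranged over the dsRNase sets from 44.9% (0 min, replicate 2) to 60.0% (30 min, replicate 1), with 53.7% and 51.7% in the 60-min replicates. The sources used here do not give the genome build. Positions are therefore those of the lists, with no gene named and no sequence shown.

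Most 60-min-only loci lay in stretches of RNA that already carried protected sites at 30 min. Regions were formed from same-strand sites of all 3 times with gaps under 500 nt, and the 60-min-only loci fell into 1051 of 21257 regions. For 1224 loci, or 76.5% (74.4 to 78.6%), the region had a 30-min site, and for 622, or 38.9% (36.5 to 41.3%), it had a 0-min site. The largest class, 624 loci in 327 regions, lay in regions with sites at 30 min but none at 0 min. Another 600 loci in 438 regions lay where both earlier times had sites, and 353 loci in 265 regions lay where neither had. Only 22 loci, in 21 regions, lay in regions with a 0-min site and no 30-min site. Intervals cover counting error alone and treat loci as independent, although loci of 1 region share an RNA.

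The same rule was applied to the other times for comparison. It found 693 loci at 30 min only, which is 3.41% of the 20301 loci called in both 30-min dsRNase replicates. It found 2571 at 0 min only, or 10.9% of 23507. The call sets of the 3 times differ in their numbers of calls, so these shares are given side by side and were not tested. The region had a 0-min site for 38.9% of the 60-min-only loci and for 58.7% (55.0 to 62.3%) of the 30-min-only loci. Of the 60-min-only loci 22.1% (20.1 to 24.2%) lay in regions with no site at another time, against 18.2% (15.5 to 21.2%) of 30-min-only and 30.6% (28.9 to 32.4%) of 0-min-only loci. The share in regions bound at 30 min but not at 0 min, 39.0% (36.7 to 41.4%), has counterparts at the other times. These are 13.8% (12.5 to 15.2%) of 0-min-only loci, bound at 30 but not at 60 min, and 23.1% (20.1 to 26.4%) of 30-min-only loci, bound at 60 but not at 0 min. A 30-min site was in the region of 76.5% of 60-min-only and 66.9% (65.1 to 68.7%) of 0-min-only loci. For 30-min-only loci the region had a 60-min site in 77.2% (73.9 to 80.2%), so a share near 76.5% is not particular to 60-min-only loci.

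**Figure D1:**
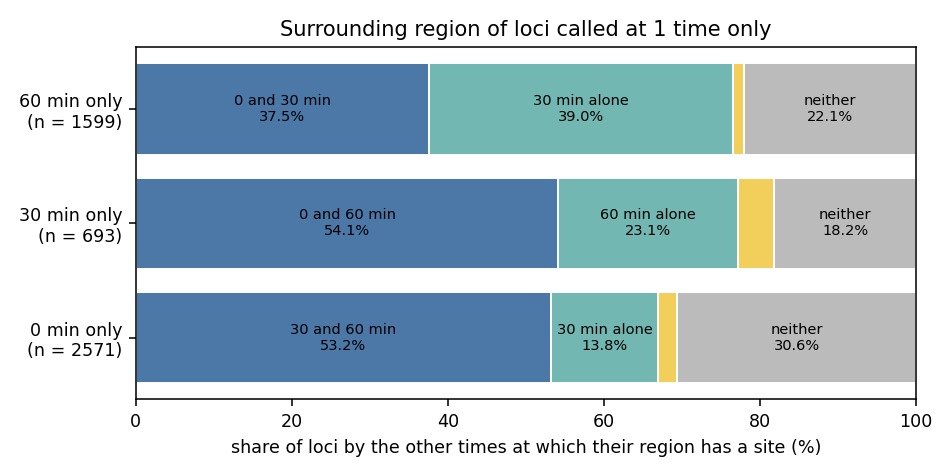
Share (%) of loci called at 1 time only by the other times at which their surrounding region has a site, with 1 bar per time and its number of loci at the left. The unlabelled narrow segment is the remaining single time. In the top bar, of 60-min-only loci, the regions bound at 30 min alone make up 39.0% and those bound at 0 and 30 min 37.5%.

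Distances to the nearest site on the same strand gave the same order of times. The median distance from a 60-min-only locus to a 30-min site was 155 nt, and 466 loci (29.1%) lay within 50 nt of one. To a 0-min site the median was 3195 nt, and 605 loci (37.8%) had none within 10000 nt. The nearest other 60-min site was at a median of 58 nt, and 1422 loci (88.9%) had one within 500 nt. Sites of the opposite strand overlapped 1 locus at each time.

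At the edge of the rule, 55 loci lay 0 to 5 nt from a 0-min or 30-min site, with a median width of 33 nt and a median score at percentile 56.6 of the 60-min list. Among loci that the rule left out, 33 with both 60-min dsRNase replicates were overlapped at their 60-min sites by 1 to 5 nt. The 60-min part of these had a median width of 5 nt and a median score at percentile 56.4. An overlap of that size can cover so narrow a site wholly, so these are not all near misses. A further 4986 loci were called at 60 min alone by 1 dsRNase replicate, 2983 by replicate 1 and 2003 by replicate 2. Those had a median width of 29 nt and a median score at percentile 17.2. The remaining 174 loci of 60 min alone had ssRNase calls only.

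The 60-min-only loci were short. Their widths ran from 3 to 211 nt with a median of 38 nt and quartiles of 30 and 50 nt. The 20645 other loci with both 60-min dsRNase replicates, which also had a site at an earlier time, had a median of 69 nt and quartiles of 46 and 109 nt. Their widths span all sites joined over the 3 lists, whereas each 60-min-only locus is a single site, so these widths are not like for like. Only 33 of the 60-min-only loci (2.06%) reached 100 nt, against 29.1% of the others. The deposited score, a value of unstated unit that ranks sites within a list, was 21.1 at the median of the 60-min-only loci and 35.1 at that of the others. As percentiles of the 60-min list these medians are 55.3 and 74.1. Wider loci are touched more readily by another site, so the rule itself favours short loci, and widths and scores carry no test. The 30-min-only and 0-min-only loci were of like size, with medians of 40 and 35 nt.

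**Figure D2:**
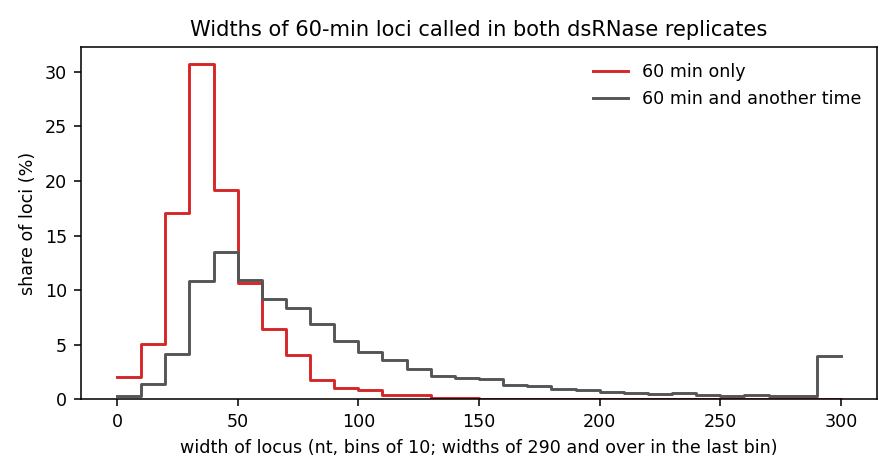
Widths of loci called in both 60-min dsRNase replicates, as the share of loci (%) per bin of 10 nt. The 60-min-only loci (red) have a median of 38 nt, and loci that also have a 0-min or 30-min site (dark grey) a median of 69 nt. Grey widths span the joined sites of all times, and red widths are those of single sites.

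The ssRNase libraries of 60 min were not used to choose the loci, and they seldom named them. Of the 60-min-only loci, ssRNase replicate 1 called 42 (2.63%) and replicate 2 called 15 (0.938%), with 6 in both and 51 (3.19%) in either. Of the other loci with both 60-min dsRNase replicates, replicate 1 called 18.6% and replicate 2 20.6%. In loci of 30 to 50 nt in both classes the shares were 2.20% and 0.979% of 817 60-min-only loci, and 6.35% and 5.63% of 5258 others. Both replicates showed the lower share in 60-min-only loci, also at 30 to 50 nt, where the scores still differed (medians at percentiles 55.2 and 63.4). Widths of the others span the joined sites of all times. Their 60-min sites can be narrower than 30 to 50 nt, so the widths of 60-min sites were not matched. The lower share was not tested. A locus with ssRNase calls at an earlier time was excluded by the rule, which can lower the share. The 30-min-only loci had ssRNase calls in 4.33% and 10.4% at 30 min, and the 0-min-only loci in 4.28% and 2.92% at 0 min.

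The 6 loci named by both ssRNase replicates lay on chromosomes 2, 8, 10, 11, 22 and 23 and were 43 to 110 nt wide. The locus on chromosome 10 (8964973 to 8965029, plus strand, 57 nt) had the second highest score of all 60-min-only loci, 102.28, at percentile 94.6. Its nearest earlier site was more than 167 kb away (167297 nt for 0 min and 167411 nt for 30 min). The chromosome 23 locus (14549771 to 14549880, minus strand, 110 nt) had a score of 68.56 and lay 43103 nt from a 0-min site. These loci were picked out after their calls had been seen.

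Several 60-min-only loci often shared a region. Of the 1051 regions, 743 held 1 such locus and 308 held 2 or more, which together held 856 loci (53.5%). A set of 30 regions held 5 or more each, 196 loci in all. Loci were spread over all 27 chromosomes, from 2.76% of the loci with both 60-min dsRNase replicates on chromosome 12 (22 of 796) to 12.8% on chromosome 27 (33 of 257). The chromosome 27 share rests largely on 1 region with 17 of its 33 loci. The plus strand held 43.5% of the 60-min-only loci, against 52.6% of the other loci with both 60-min dsRNase replicates. It held 67.5% of 30-min-only and 39.2% of 0-min-only loci. The call sets themselves differ in strand share, as given above, and the part of this in the choice of loci was not tested.

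The share of 60-min sites that were 60-min-only loci is given by class as a description, since the rule partly sets it: where no earlier site is near, none can exclude a locus. In regions bound at both earlier times they made up 11.8% of the 60-min sites (600 of 5101), and in regions bound at 30 min but not at 0 min 22.6% (624 of 2767). In those 327 regions 1788 sites covered 102772 nt at 30 min and 2767 sites covered 148665 nt at 60 min. The 60-min-only loci among them covered 27840 nt, 18.7% of the 60-min length. In the 265 regions with no earlier site they made up 63.0% of 560 sites, and in 158 of these regions every 60-min site was a 60-min-only locus. Those regions were small, with a median span of 62 nt and a median of 1 site, against 1016 nt and 6 sites in regions bound at 30 min but not at 0 min.

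Along a region, 60-min-only loci lay further toward the 3′ end than their neighbours. In the 494 regions of at least 1000 nt that held them, the median position, counted from the 5′ end, was 59.5% of the span for the 927 60-min-only loci and 51.0% for the 5560 other 60-min loci. Cut into 3 equal parts, the 3′ part held 43.1% of the 60-min-only loci and 35.3% of the others. The direction was the same in regions bound at both earlier times (61.1% against 51.3%) and in those bound at 30 min but not at 0 min (57.1% against 50.3%). Loci of 1 region are not independent, and this difference was not tested. The rule left out loci touched by an earlier site, and its part in the positions was not tested either. Positions of 30-min-only and 0-min-only loci were not computed. A region is a run of sites and need not span a whole transcript.

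To ask whether the surroundings had gained protection by 30 min, the dsRNase calls around the loci were tested. Every locus called by both dsRNase replicates of 1 time and at no other time was left out, for each of the 3 times. Loci called at 1 time alone by a single replicate stayed in. The called loci of each region were then counted in the 6 dsRNase sets. Counts were scaled per set and strand, a prior of 0.5 calls was added, and log2 values were fitted with limma over the 4268 regions whose sets averaged 2 calls or more. Of the 1051 regions with 60-min-only loci, 478 reached that minimum, and they hold 790 of the loci. The regions with too few calls, 573 with 809 of the loci, include every region with no earlier site or with a 0-min site alone.

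Where the surroundings of 60-min-only loci were bound at all 3 times, 133 of 341 tested regions (39.0%) had more calls at 30 than at 0 min, against 203 of 3606 regions without such loci (5.63%). Over all tested regions with 60-min-only loci, calls were higher at 30 than at 0 min in 266 of the 478 regions (55.6%) and lower in 2, by limma with Benjamini-Hochberg adjustment. Over all regions tested 14.5% were higher and 1.66% lower. With a set left out, the 2 lower regions became 17 (30 min, replicate 1), 4 (30 min, replicate 2, and 0 min, replicate 1) or 1 (0 min, replicate 2). The 17 are 3.64% of such regions in that fit, in which 4.99% of all regions were lower, and for the others the share of all regions was 1.10 to 2.29%. The 266 regions hold 521 of the 790 loci. The rule did not compare 30 with 0 min, but it asked for no site at either time. Regions with few 0-min calls can therefore more readily hold 60-min-only loci. The part of this in the shares was not tested. Further, 133 of the 266 come from the 137 tested regions with no 0-min site. Those reached the minimum only through the later sets and so were nearly bound to be higher. Bound at all 3 times counts sites of either RNase, and 1 of the 341 regions had no dsRNase call at 0 min. Others of the 341 with few 0-min calls may have reached the minimum mainly through the later sets. The shares of 39.0% and 5.63% are therefore a description. The 266 became 172 of 478 (36.0%) without scaling, against 9.58% of all regions. The median log2 change in the 341 regions bound at all 3 times was 0.81, and -0.11 in the 3606 without. Split by the mean number of calls, 27.5% against 4.62% were higher at 2 to under 6 calls, 52.8% against 8.80% at 6 to under 12, and 50.9% against 7.22% at 12 or more.

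**Figure D3:**
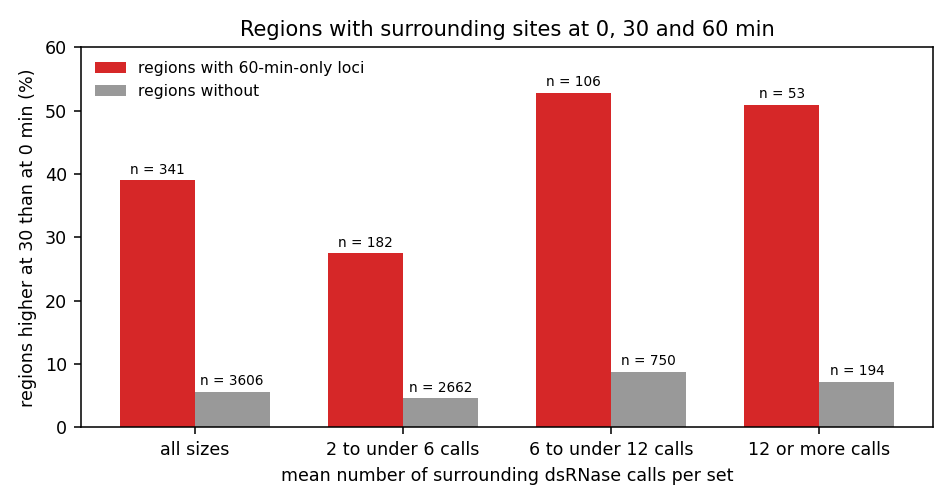
Share (%) of tested regions with more surrounding dsRNase calls at 30 than at 0 min (limma, adjusted p under 0.05), for regions whose surroundings had sites at all 3 times, by mean number of calls. Red bars are regions with 60-min-only loci and grey bars regions without, each with its number of regions. Red bars stand at 27.5 to 52.8% and grey bars at 4.62 to 8.80%. Sites of either RNase count, and regions with few 0-min calls may have reached the minimum mainly through the later sets.

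The 60-min contrasts use the sets whose calls the rule asked for, so they are given as a description. Calls around 60-min-only loci were higher at 60 than at 0 min in 291 of 478 regions (60.9%) and lower in 1, a call lost when replicate 1 of 0 min, or that of 60 min, was left out, and over all regions 15.7% were higher and 5.34% lower. This comparison shares its 0-min sets with that of 30 against 0 min. Between 60 and 30 min 0 of the 478 regions passed limma's test in either direction. At an unadjusted p under 0.05, 35 were higher and 1 lower, and by the adjusted p 16 were higher without the first 30-min replicate, 10 and 7 without replicates 1 and 2 of 0 min, and 2 without the first 60-min replicate. Of all regions 1.85%, 0.539%, 0.425% and 0.188% were higher in those fits, in that order. With all sets, 0.0469% of all regions were higher and 0.75% lower. The median log2 change for 60 against 30 min was 0.24 in the 478 regions and 0.02 in all tested regions. A p that misses the threshold does not show that the surroundings stayed the same between 30 and 60 min.

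Calls of the ssRNase sets, which are separate libraries, were counted in the same way around the loci, an analysis chosen after the dsRNase values had been seen. Of 142 regions with 60-min-only loci and enough ssRNase calls, 78 (54.9%) were higher at 30 than at 0 min and 0 were lower, and 98 were higher and 0 lower at an unadjusted p under 0.05. Of the 78, 46 come from 107 regions bound at both earlier times and 32 from 35 regions with no 0-min site. Those 35 reached the minimum only through the later sets and so were nearly bound to be higher. Sites of either RNase place a region among the 107. Some of these with few 0-min ssRNase calls may also have reached the minimum mainly through the later sets. Over the 1178 regions tested 12.8% were higher and 0.509% lower by limma's adjusted p, a share that was not split by class of surroundings. The rule also excluded any locus touched by an ssRNase site of 0 or 30 min. For 60 against 0 min 100 regions were higher and 1 lower, with 16.2% and 3.74% over all regions. For 60 against 30 min 0 passed in either direction by limma, with 20 higher and 1 lower at an unadjusted p under 0.05, and over all regions 0% were higher and 0.17% lower. The ssRNase sets of 30 min held more calls than those of the other times, for which the scaling per set allows.

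The region with the most 60-min-only loci lay on chromosome 27 (4598794 to 4606598, plus strand, 7805 nt). It had no site at 0 min, 18 sites covering 831 nt at 30 min and 56 sites covering 2769 nt at 60 min. Its 17 60-min-only loci were 14 to 137 nt wide, covered 981 nt and lay between 4599129 and 4606424. Around them the dsRNase sets, replicate 1 before replicate 2, called 0 and 0 loci with no ABA, then 14 and 11 after 30 min, then 27 and 26 after 60 min. The sets of the 3 times do not overlap. Against a floor of 3 calls per set, calls were at least 4.17-fold higher at 30 than at 0 min and at least 8.83-fold higher at 60 than at 0 min (higher in 2 of 2 sets each). Regions with no dsRNase call at 0 min reached the minimum only through the later sets, so no p is given for them against 0 min. For 60 against 30 min the log2 change was 1.18 ± 0.34 (SE, limma adjusted p = 0.143). That comparison passed with a prior of 1 call, on its own 4 sets, without either 0-min replicate, or with no locus left out. The surrounding ssRNase calls were 0 and 0, 1 and 1, and 5 and 6 at 0, 30 and 60 min. At its strongest locus (4599129 to 4599251, 123 nt) the score was 69.87, at percentile 90.2, and a 30-min site lay 6 nt away.

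On chromosome 16 a region of 2769 nt (9585699 to 9588467, minus strand) held 11 60-min-only loci. It had no site at 0 min, 5 sites over 231 nt at 30 min and 19 sites over 1613 nt at 60 min. Of that 60-min length 873 nt lay in the 11 loci. The surrounding dsRNase calls were 0 and 0, then 3 and 3, then 6 and 6 at the 3 times, at least 2.00-fold higher at 60 than at 0 min. The widest of all 60-min-only loci was here (9585954 to 9586164, 211 nt), with a score of 58.36, no ssRNase call and a 30-min site 29 nt away. Its nearest 0-min site was 130147 nt away on this strand.

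A chromosome 17 region (5180833 to 5184883, minus strand, 4051 nt) held 10 60-min-only loci of 22 to 78 nt among 36 sites at 60 min. Around them the dsRNase sets had 0 and 0, 15 and 11, and 21 and 19 calls at the 3 times. Calls were at least 4.33-fold higher at 30 than at 0 min and at least 6.67-fold higher at 60 than at 0 min. The ssRNase sets, with 0 and 0, 5 and 7, and 13 and 11 calls, did not overlap between times either. A chromosome 20 region (9382535 to 9385801, minus strand) had 7 such loci, and dsRNase calls of 0 and 0, 9 and 6, and 13 and 14 around them. Its ssRNase calls were 0 and 0, 1 and 4, and 1 and 0, so the 60-min sets did not exceed the 30-min ones. A chromosome 21 region (6200696 to 6202425, minus strand) had 9 of its 13 60-min sites in 60-min-only loci and too few other calls to be tested (0 and 0, 2 and 2, 3 and 4).

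**Figure D4:**
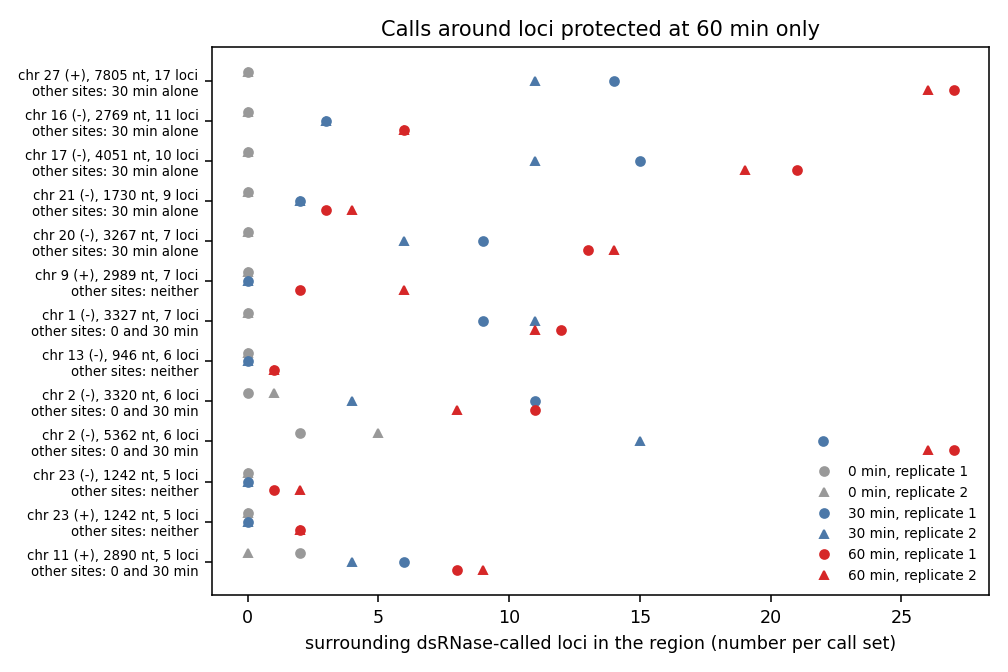
Number of loci called per dsRNase set around 60-min-only loci, in the 13 named regions with at least 5 such loci. Loci called by both replicates of 1 time alone are left out, and those called by 1 replicate are counted. Circles are replicate 1 and triangles replicate 2, in grey for 0 min, blue for 30 min and red for 60 min. On chromosome 27 the sets stand at 0, at 11 to 14 and at 26 to 27.

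Among regions with sites at both earlier times, that with the most 60-min-only loci lay on chromosome 1 (29366621 to 29369947, minus strand, 3327 nt). Its 7 loci were 7 to 44 nt wide. The single 0-min site of the region was called by 1 ssRNase set and by no dsRNase set. The surrounding dsRNase calls were 0 and 0, 9 and 11, and 12 and 11 at the 3 times, at least 3.33-fold higher at 30 than at 0 min. The 30-min and 60-min sets overlapped, with a log2 change of 0.08 ± 0.39 between them (SE, limma adjusted p = 0.963). On chromosome 2 a region of 5362 nt (12667537 to 12672898, minus strand) held 6 loci, with surrounding calls of 2 and 5, 22 and 15, and 27 and 26. Its log2 change was 2.62 ± 0.30 for 30 against 0 min (limma adjusted p = 5.71e-06), and that call did not pass without scaling. Another chromosome 2 region (20195419 to 20198738, minus strand) held 6 loci and had 0 and 1, 11 and 4, and 11 and 8 calls, a log2 change of 3.34 ± 0.45 (limma adjusted p = 3.86e-05) that rests on 1 call at 0 min and likewise did not pass without scaling. On chromosome 11 (11139428 to 11142317, plus strand, 5 loci) calls were 2 and 0, 6 and 4, and 8 and 9, and the log2 change of 2.20 ± 0.54 (limma adjusted p = 0.00786) did not pass without replicate 2 of 0 min (log2 1.12) or without scaling. With so few calls at 0 min, this region and that at 20195419 reached the minimum mainly through the later sets. Their p-values from limma are therefore given as a description.

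A single region with 60-min-only loci had fewer surrounding calls at 60 than at 0 min by limma, and it lay on chromosome 4 (2372181 to 2374526, plus strand). It held 1 such locus of 32 nt, beside dsRNase calls of 13 and 8, 8 and 7, and 3 and 5. The log2 change for 60 against 0 min was -1.25 ± 0.37 (limma adjusted p = 0.022). The call was lost when replicate 1 of 0 min (log2 -0.9999) or that of 60 min (log2 -0.79) was left out, and also without scaling, with scaling per call set or with no locus left out.

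Regions with no site at either earlier time were led by one on chromosome 9 (2107001 to 2109989, plus strand, 2989 nt), the longest of the 265. It held 15 sites at 60 min, 7 of them 60-min-only loci of 27 to 59 nt with scores of 15.8 to 48.13. The other 8 sites were called by 1 replicate each, 2 by dsRNase replicate 1 and 6 by replicate 2, and the region had no ssRNase call. On chromosome 13 (14752869 to 14753814, minus strand, 946 nt) 6 of 8 sites were 60-min-only loci, of 32 to 126 nt. On chromosome 23 regions of equal span, 1242 nt, held 5 such loci each, at 5823279 to 5824520 on the minus strand and at 5849200 to 5850441 on the plus strand. Read 5′ to 3′ they shared 3 steps of site width and gap to the next site, so reads may be shared between them and their loci are uncertain. Such a shared pattern was found for 27 of the 1051 regions, with 40 loci. The 4 regions with a 0-min site alone that hold the most 60-min-only loci had 1 or 2 such loci each. The first of them, on chromosome 19 (678006 to 679051, plus strand), had dsRNase calls of 0 and 1, 0 and 0, and 3 and 2 around its 2 loci.

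**Figure D5:**
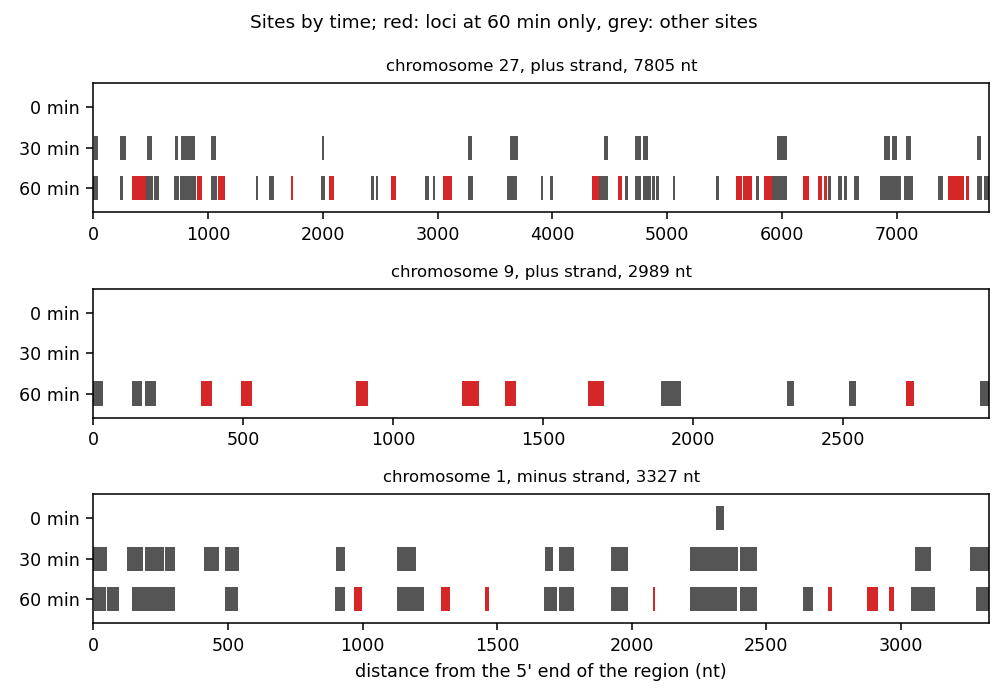
Sites of 0, 30 and 60 min (rows) in 3 regions, drawn to scale by distance from the 5′ end (nt), with 60-min-only loci in red and other sites in grey. The chromosome 27 region has no 0-min site and 17 red loci between and beside sites already present at 30 min. The chromosome 9 region has sites at 60 min alone, and the chromosome 1 region has 1 site at 0 min.

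The 5 widest and the 5 highest-scoring loci lay in regions with no 0-min site, whereas 38.9% of all 60-min-only loci lay in regions with one. The rule partly sets this for width, since a wide locus is more readily excluded where an earlier site is near. After the chromosome 16 locus the widest were on chromosome 13 (2394273 to 2394467, minus strand, 195 nt), on the paired chromosome 23 regions (151 and 146 nt) and on chromosome 9 (16836127 to 16836269, minus strand, 143 nt). Of these 5, 3 lay in regions with no earlier site, among them both of the paired chromosome 23 regions, and 2 in regions with 30-min sites. The highest score, 132.74 at percentile 96.5 of the 60-min list, belonged to a locus on chromosome 6 (5648504 to 5648585, plus strand, 82 nt) whose nearest 0-min and 30-min sites were 6804 and 8906 nt away. The next after the chromosome 10 locus described above were on chromosome 24 (7420322 to 7420421, minus strand, score 79.01, 15 nt from a 30-min site), chromosome 5 (10508916 to 10508945, minus strand, 77.41, 114 nt) and chromosome 23 (12731072 to 12731137, minus strand, 77.34, 577 nt). Of these 5 only the chromosome 10 locus had an ssRNase call. The highest score in the 60-min list as a whole was 5085.11.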

How the data were processed

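The authors deposited 3 lists of protein-protected sites with a strand, the names of the merged calls and a score per site. The score has no stated unit, and it served to rank and describe sites inside 1 list. The list names contain CSAR, a false discovery rate of 5% and "trimmed"; the sources used here say nothing more of how sites were called. TopHat2 2.0.10 and cutadapt 1.2.1 appear in the submitters' processing notes, with the build mm10, a mouse build that the 27 chromosomes of the lists do not match. The reference gene table is of another assembly and was not used. Depth is unknown, as no read counts were used.

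A call set is a time, RNase and replicate, for which protein-bound and structure-only libraries were set against each other. Coordinates are 1-based, and scaffolds were left out. Python 3.11.15, pandas 2.3.3 and R 4.3.3 with limma 3.58.1 (mean trend, Benjamini-Hochberg at 0.05, all 6 dsRNase sets in 1 fit) were used. The fit was also run on simulated calls, drawn with no added spread between replicates and with changes only in regions of higher call numbers. That run cannot tell how the fit performs on regions with few calls or on the spread of these data. P-values set the change between times against the spread between replicates, which may be technical. Limma draws that spread in part from all tested regions. Regions were taken as copies when they shared at least 3 steps of site width and gap, and at least 30% of the steps of the smaller one. Members and comparisons were chosen with earlier results of these data known.

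Named were the 4 regions with most 60-min-only loci in each class of surroundings, the 4 with most such loci among those past the 60-min tests in each direction, and the 5 widest and 5 highest-scoring loci.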

Additional observations from a re-analysis of the deposited data

How the results depend on the processing

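Absence at an earlier time is the absence of a call, and the number of loci called at 60 min only was set by how strictly calls were taken. The 1599 loci became 3382 when only sites above the median score of each list were used, and 6303 to 6660 when 1 replicate number was left out so that a single call decided. Joining sites up to 10 nt apart, asking for 10 nt of overlap, or ignoring earlier ssRNase calls kept the number within 1.5 times. The share of loci in a region with an earlier site, 77.9%, was 60.9% with a gap of 200 nt and 85.3% with 1000 nt. The share with an ssRNase call, 3.19%, was 5.23% above the median score and 0.938 to 2.63% with 1 ssRNase replicate left out.

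Of regions with 60-min-only loci, 266 had more surrounding calls at 30 than at 0 min. This was 172 without scaling, 165 with a 200 nt gap, 78 with the ssRNase sets (142 regions tested), and 251 to 272 with 1 set left out. In each of these settings the share among such regions exceeded that among all regions tested. Regions with no 0-min site, nearly bound to be higher, were left out in none of them. The settings were not rerun on regions bound at all 3 times alone, so the excess is a description. The 2 lower regions became 1 with the 60-min-only loci alone left out, with scaling per set, without scaling or without the filter. They became 0 with a smaller prior, a minimum mean of 1 call or the ssRNase sets, 4 with a 1000 nt gap, 124 above the median score (20.1%, against 35.5% of all regions there), and 1 to 17 with 1 set left out (17 for replicate 1 of 30 min, and 4 for its replicate 2 or replicate 1 of 0 min). For 60 against 0 min, 291 higher regions became 178 with a 200 nt gap, 100 with the ssRNase sets and 253 to 315 with 1 set left out. The 1 lower region became 0 with no locus left out, scaling per set, or either other gap, 49 above the median score (7.93%, against 25.5% of all), and 0 to 1 with 1 set left out. For 60 against 30 min the 0 higher regions became 19 with no locus left out, 7 with a prior of 1 call, 10 without the filter, 15 on its own 4 sets, 91 above the median score (14.7%, against 12.2% of all), and 0 to 16 with 1 set left out (16 for replicate 1 of 30 min, and 10 and 7 for the 0-min replicates). The 0 lower regions became 20 above the median score (3.24%, against 13.5% of all). In the other settings that raised the higher count, it was 0.448 to 3.43% of regions with 60-min-only loci and 0.177 to 1.85% of all. The causes were not tested.

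With the replicate number as a block, 269 regions were higher and 2 lower for 30 against 0 min, 294 and 1 for 60 against 0 min, and 0 and 0 for 60 against 30 min. Same-numbered sets deviated together with correlations of -0.05, -0.03 and 0.20 over 4268 regions, so the numbers were not taken to pair the samples. Of the log2 changes of named regions under the alternatives, 411 kept direction and call, 11 lost the call, 6 gained it and 3 reversed. The reversed ones, none past the threshold in either fit, were all for 60 against 30 min. On chromosome 1 the change of 0.07 became -0.032 with the 60-min-only loci alone left out, and ran from -0.24 (replicate 1 of 30 min) to 0.39 with 1 set left out. In the chromosome 2 region at 20195419 that of 0.34 ran from -0.16 (replicate 2 of 30 min) to 0.83 with 1 set left out. These were not recomputed for the other gaps and for the higher scores, which change the regions themselves.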
